A study of Homo sapiens with 6 samples.

Results

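The 9 genes examined here encode the factors that assemble the vacuolar proton pump and regulate its activity: DMXL1, DMXL2, WDR7 and ROGDI of the RAVE or rabconnectin-3 group, the assembly factors TMEM199, CCDC115 and VMA21 of the endoplasmic reticulum, and the TLDc-domain proteins NCOA7 and OXR1. They were taken by symbol from the deposited gene table, and all 9 had a row among its 32750 gene IDs. The libraries came from LX-2, an immortalised human hepatic stellate cell line, the liver cell type that deposits collagen in fibrosis. The cells are labelled wild type and all 6 libraries followed siRNA transfection: in 3 of them the siRNA was a non-targeting control, and in the other 3 the label names ATP6AP1 as its target, a transient knockdown. The submitters describe separate biological replicates. Neither the time after transfection nor an activating treatment is stated in the labels, although the series title calls the cells activated.

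The vacuolar ATPase (V-ATPase) pumps protons into lysosomes, endosomes and the Golgi. Its membrane sector, V0, is built in the endoplasmic reticulum with the help of dedicated chaperones (in yeast Vma12, Vma22 and Vma21, whose human counterparts are TMEM199, CCDC115 and VMA21), and the soluble sector, V1, is attached to V0 later. In yeast the RAVE complex drives that attachment, and in animals DMXL1 or DMXL2 does so together with WDR7, with ROGDI as a further partner. TLDc-domain proteins such as NCOA7 and OXR1 bind V1 and are linked to the opposite step, its release, and to protection against oxidative stress.

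ATP6AP1, the siRNA target, is itself an accessory V0 subunit related to a yeast assembly factor, Voa1. Its mRNA was at 116, 117 and 129 CPM (read counts scaled to library size, corrected for RNA composition by a factor called TMM) with the control siRNA, and at 144, 146 and 140 CPM where the label names ATP6AP1. The mRNA was thus higher there and not lower (1.19-fold, 95% confidence interval 1.08 to 1.30, edgeR with Benjamini-Hochberg adjustment, adjusted p = 0.00425). The target goes against the label, so directions below compare the libraries labelled ATP6AP1 siRNA with the controls and do not stand for a measured depletion. An exchange of the labels of the groups, which would turn every direction given here, was not tested. ATP6AP2, the other accessory subunit, went from 206 ± 9.56 to 191 ± 14.8 CPM (SD, n = 3 each) and did not pass the test (log2 fold change -0.11, edgeR adjusted p = 0.190). With the trend on gene span removed, as described below for long genes, ATP6AP2 was at -0.20 and passed as lowered (0.0267).

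Total counts per library ran from 15644464 to 19656533, and the 9 genes were covered by 289 to 2531 reads each. Of 8 stellate or fibroblast markers 7 had a mean of at least 1 CPM, desmin (DES) being the exception, and none was at 0 in all libraries. Their summed level was 5997 to 6534 CPM in the controls and 3422 to 3851 CPM in the libraries labelled ATP6AP1 siRNA. Most of that sum was VIM, with means of 4679 and 2757 CPM. The part of this lower sum in the results below was not tested. The labels name LX-2 cells alone, and bulk RNA cannot tell fewer cells expressing these markers from less of their RNA per cell. The marker lists of other liver cells had lower sums. The hepatocyte list, with 1 of 5 measured genes at 1 CPM or more, summed to 7.54 to 8.72 CPM in the controls and 4.65 to 5.91 CPM in the others. The cholangiocyte list (2 of 4, led by SOX9) summed to 26.4 to 32.2 and 29.5 to 38.1 CPM. The endothelial list (0 of 4) summed to 1.06 to 1.56 and 0.752 to 1.21 CPM, and the blood and macrophage list (1 of 5) to 4.09 to 4.77 and 3.60 to 4.85 CPM. SOX9 itself was not low beside single stellate markers. Its means of 24.4 and 27.4 CPM lay above PDGFRB (8.965 and 5.63 CPM) and DES in both groups. They lay below VIM, COL1A1 and LOXL2 in both groups, and below COL1A2, COL3A1 and ACTA2 in the controls only.

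Of the 9 assembly factors, 4 rose in the libraries labelled ATP6AP1 siRNA, none fell and 5 did not pass the test. The raised ones were DMXL2, WDR7, TMEM199 and OXR1. Over all 15372 genes tested, 53.3% changed, 26.7% rising and 26.6% falling, so a count of 4 raised genes is to be read against a background in which changes were common. In these 4 genes every labelled library lay above every control library, where 59.5% of all genes had no overlap, 29.8% higher and 29.7% lower. The median log2 fold change of the 9 was 0.044, beside -0.0043 over all genes. With library size alone in place of TMM the median over all genes was 0.13 and that of the 9 was 0.18. DMXL2, WDR7, TMEM199 and OXR1 were again the raised ones and none was lowered, where 54.3% of all genes changed (36.5% raised, 17.8% lowered).

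**Figure D1:**
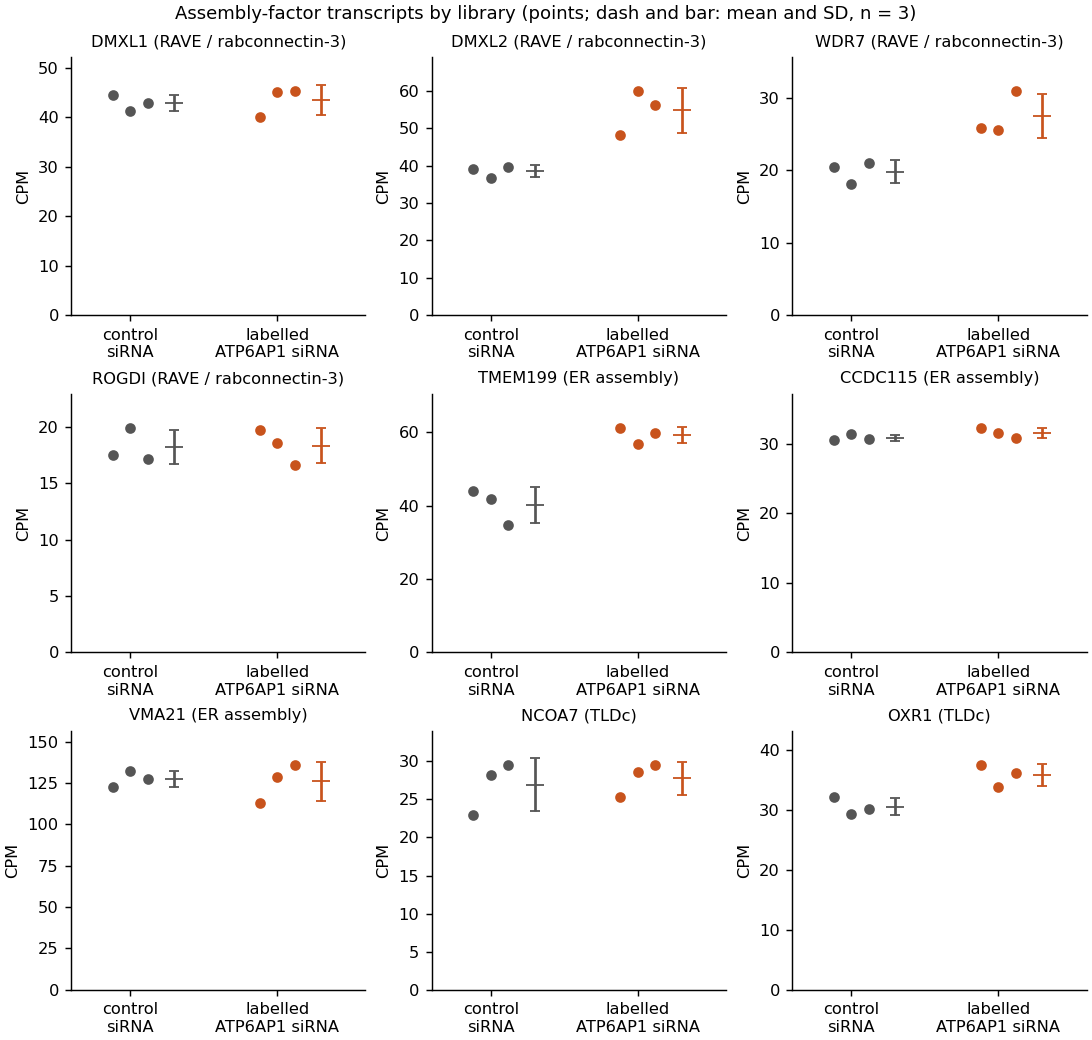
CPM of each assembly factor in the 6 libraries, in 1 panel per gene with the axis from 0; points are libraries, and the dash and bar are the mean and SD of 3. DMXL2, WDR7, TMEM199 and OXR1 show no overlap between the control libraries (grey) and those labelled ATP6AP1 siRNA (orange), while the other 5 overlap.

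In the rabconnectin-3 group, DMXL2 and WDR7 rose by similar amounts while DMXL1 and ROGDI did not pass the test. DMXL2 (ENSG00000104093, chromosome 15, 51447711 to 51622833, minus strand, GRCh38), the large WD-repeat protein also called rabconnectin-3 alpha, had 39.1, 36.7 and 39.7 CPM in the controls against 48.3, 59.9 and 56.1 CPM in the libraries labelled ATP6AP1 siRNA. All 3 of the latter lay above all controls, with replicate 1 the lowest of them. The fold was 1.42 (95% confidence interval 1.26 to 1.61; log2 fold change 0.51, SE 0.0836; edgeR adjusted p = 0.000213). WDR7 (ENSG00000091157, chromosome 18, 56651343 to 57029811, plus strand), rabconnectin-3 beta, which pairs with DMXL1 or DMXL2, stood at 20.4, 18.0 and 21.004 CPM in the controls and at 25.8, 25.6 and 30.9 CPM in the others. Replicate 3 was the highest of the labelled libraries, and the groups did not overlap. The fold was 1.39 (1.199 to 1.61; log2 fold change 0.47, SE 0.0976; edgeR adjusted p = 0.00121). The 5′ end of WDR7 overlaps TXNL1 on the other strand by 258 bases. TXNL1 fell by 0.16 on the log2 scale (edgeR adjusted p = 0.0409), and since no strand setting is stated for the counting, reads there cannot be assigned.

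DMXL1 (ENSG00000172869, chromosome 5, 119037772 to 119249138, plus strand), the broadly expressed paralogue of DMXL2, stood at 44.6, 41.2 and 42.8 CPM in the controls and at 40.1, 45.2 and 45.4 CPM in the libraries labelled ATP6AP1 siRNA. The groups overlapped, and the lowest and highest of the 6 values both came from labelled libraries. The fold was 1.02 with an interval of 0.910 to 1.13, which leaves out the rise measured for DMXL2 (edgeR adjusted p = 0.811). ROGDI (ENSG00000067836, chromosome 16, 4796968 to 4802880, minus strand), a leucine-zipper protein related to yeast Rav2 and mutated in Kohlschütter-Tönz syndrome, stood at 17.5, 19.9 and 17.1 CPM in the controls and at 19.8, 18.6 and 16.6 CPM in the others. Its groups overlapped across nearly their whole range (fold 1.01, interval 0.870 to 1.16, edgeR adjusted p = 0.952). The ROGDI value is uncertain, because 51.7% of the 50-base windows of its longest transcript also occur in an overlapping gene on the same strand. That gene itself held at most 8.16 reads in a library.

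The ratio of one gene's reads to another's within a library does not depend on how libraries are scaled, so it was compared for 4 pairs of genes. DMXL2 gave 0.877, 0.889 and 0.927 reads per DMXL1 read in the controls. With the ATP6AP1 label it gave 1.204, 1.33 and 1.24. DMXL1 thus had more reads than its paralogue in every control library and fewer in every labelled library, with merged exons of 13.8 kb for DMXL2 and 13.9 kb for DMXL1. The ratio differed 1.40-fold, and the exact two-sided permutation test gave p = 0.1, the smallest that 3 against 3 libraries can give (0.2 adjusted over the 4 pairs). The ratio of WDR7 to DMXL2 was 0.521, 0.492 and 0.530 in the controls and 0.534, 0.427 and 0.552 in the others, with overlap (0.975-fold, exact permutation p = 1). Without ATP6AP1 siRNA replicate 2, the library with the lowest ratio, that log2 difference went from -0.037 to 0.079.

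**Figure D2:**
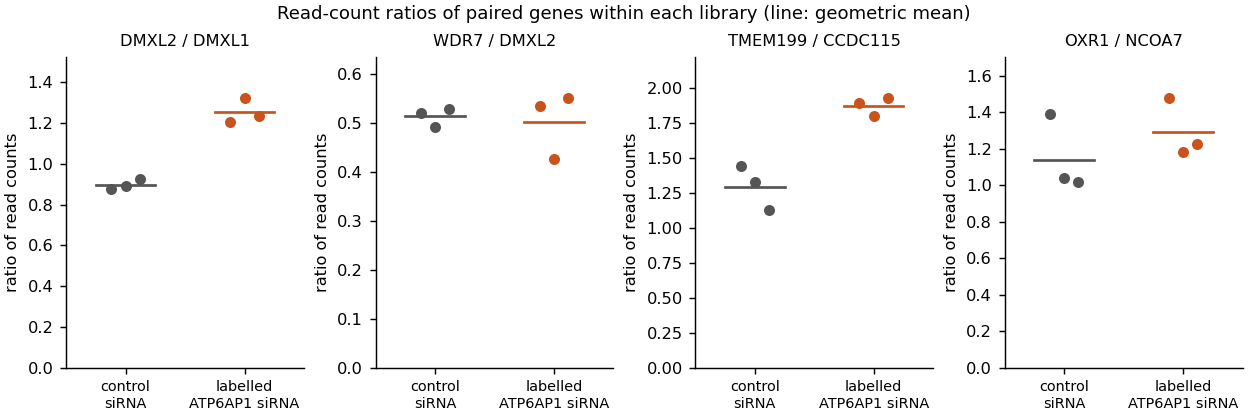
Ratio of read counts of 2 genes within each of the 6 libraries, with axes from 0; points are libraries and lines geometric means of 3. DMXL2 to DMXL1 and TMEM199 to CCDC115 are higher in all 3 libraries labelled ATP6AP1 siRNA, while WDR7 to DMXL2 and OXR1 to NCOA7 overlap between groups.

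Promoter sequences are shown for DMXL2, which rose, and for inner starts of its paralogue DMXL1, which did not pass the test, and of NCOA7. RefSeq (GRCh38.p14) gave windows for 6 of the 9 genes (not for TMEM199, CCDC115 and OXR1), 10 in all, each from 250 bases before an annotated start to 50 after it. Each line is read 5′ to 3′ on the gene's strand and stops at the start or at the first annotated exon of a protein-coding gene. Capitals mark matches, on either strand, to GGGCGG (GC box), CCAAT (named for its letters), the NRF1 motif and the interferon-stimulated response element (ISRE). The GC, CCAAT, NRF1 and YY1 motifs were chosen after the letters were seen.
DMXL2, chr15:51622834-51623021, minus strand: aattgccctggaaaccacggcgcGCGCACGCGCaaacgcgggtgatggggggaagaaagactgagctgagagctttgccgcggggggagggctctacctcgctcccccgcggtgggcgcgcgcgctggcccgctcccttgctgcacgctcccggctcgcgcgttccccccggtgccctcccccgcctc
DMXL1, chr5:119070777-119071026, plus strand: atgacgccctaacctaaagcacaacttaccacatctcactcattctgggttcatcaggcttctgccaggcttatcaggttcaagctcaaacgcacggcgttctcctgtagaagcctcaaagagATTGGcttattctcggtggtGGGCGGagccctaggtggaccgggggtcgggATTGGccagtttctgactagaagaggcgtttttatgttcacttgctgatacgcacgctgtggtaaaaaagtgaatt
NCOA7, chr6:125919005-125919223, plus strand: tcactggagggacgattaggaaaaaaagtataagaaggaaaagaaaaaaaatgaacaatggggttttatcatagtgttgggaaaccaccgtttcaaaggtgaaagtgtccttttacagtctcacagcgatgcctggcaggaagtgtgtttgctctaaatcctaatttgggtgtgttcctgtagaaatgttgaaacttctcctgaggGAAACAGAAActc
Shares of windows are over the 35116 whole RefSeq windows. The DMXL2 window holds an NRF1 match (5.78% of windows) in the printed stretch and a GC box (44.95%) in the part not printed, after the start. DMXL1 has 2 overlapping windows, which share a GC box and 2 CCAAT boxes (34.6%), all in the printed stretch of the first. Both windows lie inside the gene span given above, which begins at 119037772. A window of WDR7 holds a match to the YY1 motif, found in 2.14% of windows. The NCOA7 line alone among the 10 windows matches the ISRE, found in 3.57% of windows. None of the 10 windows held CACGTG (the E-box at the core of the CLEAR element of lysosomal genes, 7.26% of windows), TGANTCA (AP-1, 7.71%), TGACNNNGC (the antioxidant response element, 13.3%) or TGACGTCA (CRE, 1.85%). A match describes letters and is not a measured binding site.

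Among the 3 assembly factors of the endoplasmic reticulum, TMEM199 rose while its partner CCDC115 and VMA21 did not pass the test. TMEM199 (ENSG00000244045, chromosome 17, 28357642 to 28363683, plus strand), a membrane protein that forms a complex with CCDC115, stood at 44.1, 41.8 and 34.6 CPM in the controls and at 61.2, 56.9 and 59.7 CPM in the libraries labelled ATP6AP1 siRNA. The labelled libraries lay close together and above all controls, of which replicate 3 was the lowest. The fold was 1.47 (95% confidence interval 1.30 to 1.68; log2 fold change 0.56, SE 0.0859; edgeR adjusted p = 0.000123). The value carries a doubt about counting, since 54.7% of the 50-base windows of its longest transcript occur in overlapping genes. The overlapping gene ENSG00000258924 on the same strand held 27.7 to 52.3 reads, 2.49 to 7.52% of the TMEM199 count. With its reads added the log2 fold change was 0.55 (edgeR adjusted p = 8.07e-05).

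CCDC115 (ENSG00000136710, chromosome 2, 130337933 to 130342699, minus strand), a coiled-coil protein whose loss, like that of TMEM199, causes a disorder of Golgi glycosylation, stood at 30.6, 31.4 and 30.7 CPM in the controls and at 32.3, 31.6 and 30.9 CPM in the others. These were the tightest values of the 9 genes, with an SD of 0.462 CPM over the controls, and the groups overlapped (fold 1.02, interval 0.922 to 1.13, edgeR adjusted p = 0.724). The ratio of TMEM199 to CCDC115 reads was 1.44, 1.33 and 1.13 in the controls. It was 1.89, 1.80 and 1.93 in the libraries labelled ATP6AP1 siRNA, all above the controls. The partners' ratio differed 1.45-fold, with an exact permutation p of 0.1, again the smallest possible (0.2 adjusted over the 4 pairs).

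VMA21 (ENSG00000160131, chromosome X, 151396515 to 151409364, plus strand), the small chaperone that accompanies V0 out of the endoplasmic reticulum and is mutated in a myopathy with excessive autophagy, stood at 123, 132 and 127 CPM in the controls. With the ATP6AP1 label it had 113, 129 and 136 CPM, spanning the whole control range. The fold was 0.989 with an interval of 0.889 to 1.10 (edgeR adjusted p = 0.869), and the sign of its log2 fold change, -0.016, turned to 0.12 with library size alone.

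Of the 2 TLDc-domain genes, OXR1 rose by a small amount and NCOA7 did not pass the test. OXR1 (ENSG00000164830, chromosome 8, 106270144 to 106752694, plus strand), oxidation resistance 1, stood at 32.0, 29.3 and 30.1 CPM in the controls and at 37.5, 33.7 and 36.2 CPM in the libraries labelled ATP6AP1 siRNA. The groups did not overlap, but the gap between the highest control and the lowest labelled library was small. The fold was 1.18 (95% confidence interval 1.05 to 1.31; log2 fold change 0.23, SE 0.0746; edgeR adjusted p = 0.0184). This was the least firm of the 4 calls: the adjusted p was 0.0567 in DESeq2 and 0.0717 in edgeR without control replicate 2. The extremes over the alternatives came from unlike settings. The lowest edgeR adjusted p, 2.91e-06, was with the gene span trend removed. The highest, 0.635, was in a test of whether the fold exceeds 1.2, a different question from whether OXR1 changed at all.

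NCOA7 (ENSG00000111912, chromosome 6, 125781161 to 125932034, plus strand), a nuclear receptor coactivator whose short interferon-inducible form acts on the V-ATPase, stood at 23.0, 28.2 and 29.5 CPM in the controls and at 25.3, 28.6 and 29.5 CPM in the others. In each group replicate 1 was the lowest, and the ranges nearly coincided (fold 1.03, interval 0.887 to 1.199, edgeR adjusted p = 0.735). The ratio of OXR1 to NCOA7 reads ran from 1.02 to 1.39 in the controls and from 1.18 to 1.48 in the others, with overlap (1.14-fold, exact permutation p = 0.3). The gene-level count sums all forms of NCOA7, and the short form cannot be read from it separately.

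Long genes were mostly lower in these libraries, yet DMXL2, WDR7 and OXR1 are long genes that rose. DMXL1, DMXL2, WDR7 and OXR1 span 211, 175, 378 and 483 kb and fall in the longest decile of the protein-coding genes tested, of 165 kb or more. Of the 1298 genes in that decile, 7.09% rose and 59.6% fell, with a median log2 fold change of -0.40, whereas 3 of these 4 rose and DMXL1 was at 0.023. NCOA7, at 151 kb, lies in the next decile, where 17.0% rose and 41.7% fell (median -0.15). The short genes ROGDI, CCDC115, TMEM199 and VMA21 (4.77 to 12.8 kb) lie in the 3 shortest deciles, with medians from -0.030 to 0.14.

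With each library's trend on gene span taken out of the fit, all 5 long genes moved up on the log2 scale. The removal itself moves genes of such spans up, since the medians of their deciles were -0.40 and -0.15. WDR7 went to a log2 fold change of 0.96, OXR1 to 0.80 and DMXL2 to 0.76. DMXL1 and NCOA7, which did not pass in the main test, were then at 0.34 and 0.25 (edgeR adjusted p = 0.00139 and 0.0439). TMEM199 was at 0.52, while ROGDI, CCDC115 and VMA21 were at -0.033, 0.012 and -0.13 and did not pass. The median of the 9 was then 0.34. The raised genes numbered 6 of 9, where 51.7% of all genes changed (25.9% raised, 25.8% lowered), and none was lowered. The calls for DMXL1 and NCOA7 thus depend on whether a long gene is set against all genes or against genes of its own span.

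**Figure D3:**
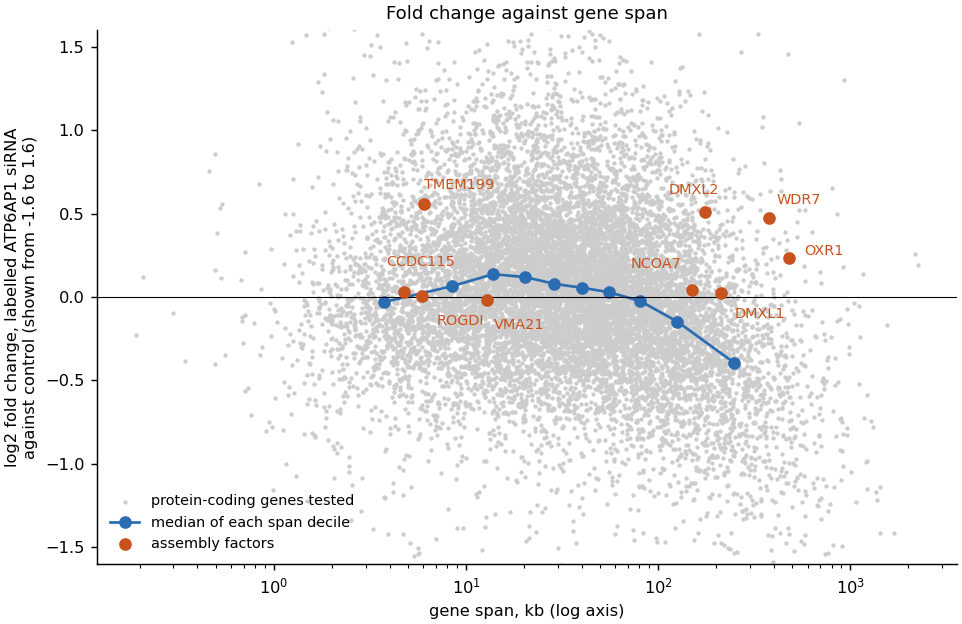
Log2 fold change (vertical axis, cropped) against gene span in kb on a log axis, for the protein-coding genes tested (grey), the median of each decile by span (blue) and the 9 assembly factors (orange). The medians fall to -0.40 in the longest decile, where DMXL2, WDR7 and OXR1 lie above 0.

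**Figure D4:**
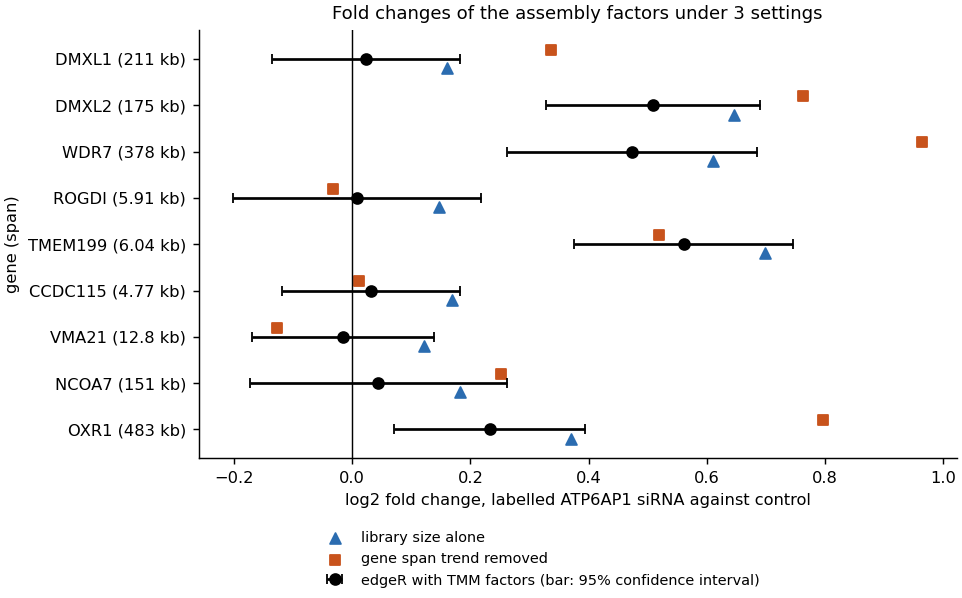
Log2 fold change of each assembly factor, with its span in brackets, from edgeR with TMM factors (black, bar the 95% confidence interval), with library size alone (blue triangles) and with the gene span trend removed (orange squares). DMXL2, WDR7, TMEM199 and OXR1 lie above 0 in all 3, and the squares move furthest from the circles in the longest genes, OXR1 and WDR7.

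Levels were compared between genes per length in the control libraries, in TPM (reads per kb of merged exons, scaled to one total in every library). VMA21 was the most abundant at 96.1 ± 3.41 TPM (SD, n = 3), followed by TMEM199 at 33.9 ± 3.77, CCDC115 at 26.8 ± 0.361 and ROGDI at 19.4 ± 1.36 TPM. All control values of each of these 4 lay above all of the next. The step from ROGDI to OXR1 depends on the length used: counted by longest transcript they were at 18.3 and 17.6 TPM. OXR1 (13.8 ± 0.679), NCOA7 (13.6 ± 1.85), DMXL1 (11.9 ± 0.544) and DMXL2 (10.8 ± 0.604 TPM) followed, and neighbours among these 4 overlapped in their control values. WDR7 was the lowest at 8.59 ± 0.799 TPM, with all its control values below those of DMXL2. The siRNA target ATP6AP1 was at 82.0 ± 6.26 TPM, below VMA21 and above the other 8; counted by longest transcript, ATP6AP1 and VMA21 were at 72.4 and 73.0 TPM. Among tested protein-coding genes the level of VMA21 over all libraries was at percentile 85.1 and that of WDR7 at percentile 31.2.

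The pump's own subunits and the partners of these factors were then set beside them, as whole lists by function. Of 13 genes for V1 subunits, 9 were tested, of which 2 rose, 2 fell and 5 did not pass (median -0.014 on the log2 scale), shares near the 26.7% raised and 26.6% lowered over all genes. ATP6V1A, the catalytic subunit, rose by 0.30 on the log2 scale, from 63.5 ± 3.50 to 78.0 ± 5.93 CPM (edgeR adjusted p = 0.00373). ATP6V1G1, a stalk subunit, rose by 0.19, and ATP6V1E2, a minor form of another stalk subunit at 2.79 CPM in the controls, fell by 0.63. Of 11 genes for V0 subunits, 10 were tested, of which 5 rose, 2 fell and 3 did not pass (median 0.32), beside that same background. ATP6V0B and ATP6V0A1 rose by 0.60 and 0.53, and ATP6V0E1 fell by 0.51 (adjusted p = 3.50e-06, 2.05e-05 and 4.11e-05). With library size alone, which moved the median over all genes to 0.13 and the background to 36.5% raised and 17.8% lowered, the V1 counts became 3 raised and none lowered and the V0 counts 6 raised and 2 lowered. Under that scaling ATP6V1E2 was at -0.49 (adjusted p = 0.0618), and ATP6V1B2, the other V1 gene that fell, went from -0.15 to -0.017 (0.811). With the gene span trend removed, ATP6V1G1 did not pass (0.329). ATP6V1E2 and ATP6V1B2 did pass as lowered there, at -0.67 and -0.24 (edgeR adjusted p = 0.0157 and 0.00301).

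Rabconnectin-3 was named for its binding to the regulators of the small GTPase Rab3, and these were mixed. MADD, the Rab3 exchange factor, had 30.7 ± 0.783 CPM in the controls and 40.3 ± 2.41 CPM in the others, and rose by 0.39 on the log2 scale (edgeR adjusted p = 0.000579). The GTPase-activating subunits RAB3GAP1 and RAB3GAP2 were at -0.16 and 0.21, and neither passed (adjusted p = 0.0504 and 0.0503). RAB3GAP2 did pass with library size alone (0.00304) and with the span trend removed (0.00208). SKP1, a partner in yeast RAVE, fell by 0.14 (adjusted p = 0.0401). That call was lost with library size alone, where its log2 fold change was -0.0050. It held with the span trend removed (-0.24, edgeR adjusted p = 0.00274).

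Of the other 3 TLDc-domain genes, 1 fell, 1 did not pass and 1 was not tested. MEAK7, an mTOR-associated TLDc protein of the lysosome, fell by 0.84 on the log2 scale, from 40.2 ± 0.449 to 22.5 ± 1.88 CPM (edgeR adjusted p = 1.84e-06), and all 3 labelled libraries lay below all controls. That is a larger change than any of the 9 assembly factors showed in this test. TBC1D24 was at 0.094 and did not pass (adjusted p = 0.389), though with library size alone it did, at 0.23 (0.0395). TLDC2 held at most 2 reads in a library and was not tested.

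**Figure D5:**
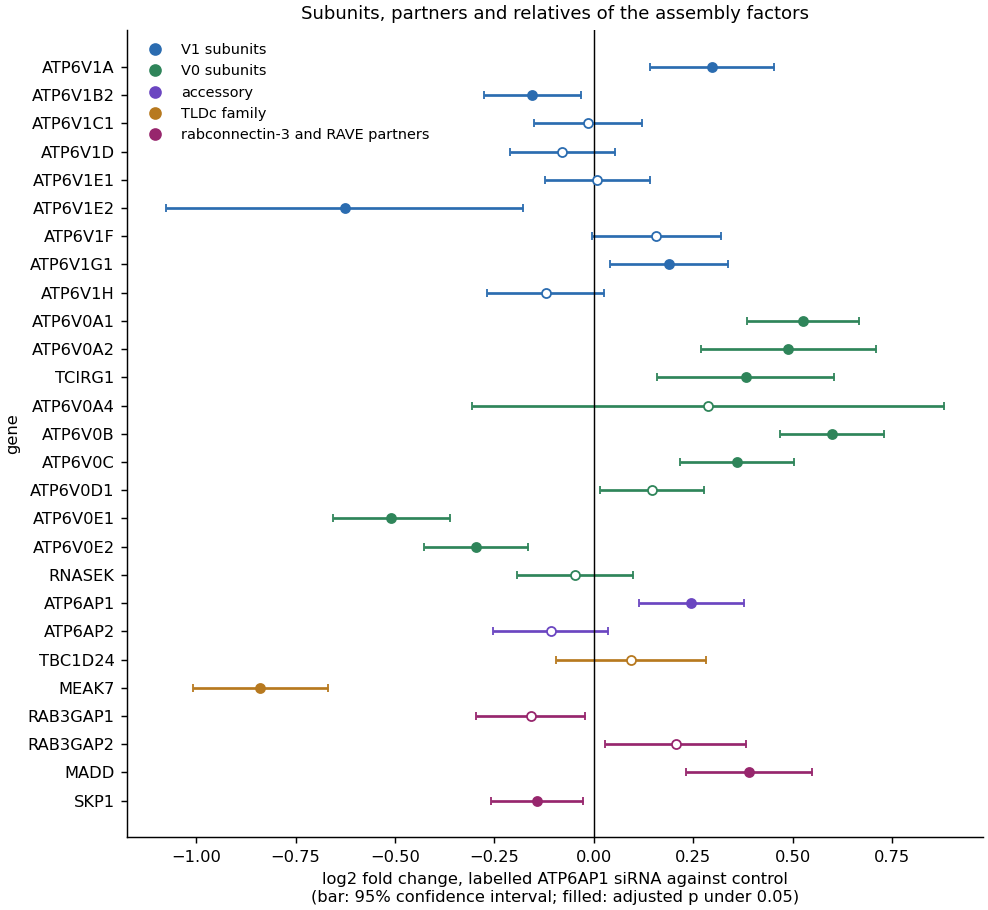
Log2 fold change with its 95% confidence interval for the tested V-ATPase subunits, accessory subunits, other TLDc genes and rabconnectin-3 or RAVE partners; filled points have an adjusted p under 0.05. Among V0 genes 5 filled points lie to the right of 0, and MEAK7 lies furthest to the left at -0.84.

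For the member of each role group with the lowest adjusted p, the genes most like it across the 6 libraries were found by Pearson's r of log2 CPM over 10882 protein-coding genes with a mean of at least 5 CPM. DMXL2 was closest to USF3 (r = 0.998), TMEM67 (0.998) and SPICE1 (0.997). TMEM199 was closest to ZDHHC4 (0.998), FBXO8 (0.996) and CENPN (0.996), and OXR1 to PCF11 (0.990), TRMT5 (0.989) and PILRB (0.989). With 6 libraries in 2 groups such values were common: 681 genes had an r over 0.95 with DMXL2, 371 with TMEM199 and 61 with OXR1. None of the other 8 assembly factors was among the 3 closest genes of DMXL2, TMEM199 or OXR1. With only 3 of 10882 genes kept for each, that absence cannot show whether the factors share a pattern.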

How the data were processed

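Paired-end libraries were made from oligo(dT)-selected RNA of LX-2 cells, per the labels' protocols. Per the submitters' processing notes, the tools included HISAT2, featureCounts, Trimmomatic, FastQC and DESeq2, and the build was GRCh38 (hg38); no versions, order, annotation, strand setting or handling of multiply mapped reads are stated. The table that the authors deposited holds estimated counts (expected counts), 12.3 to 13.9% of them not whole in a library; the planned tests had assumed whole counts. The values were rounded and fitted with edgeR 4.0.16 in R 4.3.3 (filterByExpr, TMM, quasi-likelihood F test, two-sided, group as the term, Benjamini-Hochberg over all 15372 genes tested, threshold 0.05). Alternatives included DESeq2 1.42.0, limma-voom (limma 3.58.1) and other scalings and filters. The edgeR test and the removal of the span trend were also run on simulated counts. For the edgeR test far fewer genes were changed in the simulation than in these data, so it does not cover that setting. For the span trend no simulated gene changed beyond a straight trend, so that simulation does not cover it either. Errors are SDs over 3 libraries or SEs of the fit, and intervals of the fit cover the spread between these libraries. Symbols, positions and exon lengths came from GENCODE release 44 (GRCh38), and promoter windows from RefSeq.

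Ratios used a prior of 0.5 reads and exact permutation over libraries (scipy 1.17.1). The gene span trend was a lowess curve per library, used as an offset; 325 tested genes without an annotated span got none. Members, lists and alternatives were chosen with earlier results of these data known. Named genes were the 9 members, the accessory, TLDc and partner genes, the 3 subunits of each sector with the lowest adjusted p, and the closest genes by r. Outside that rule, and chosen after their values were seen, are TXNL1 and ENSG00000258924 (which overlap members) and ATP6V1B2 (a lost call). So are the cell type markers named singly and the subunit genes that only the closing observations name. No library repeated another, since the chi-square per gene between replicates was at least 3.66.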

Additional observations from a re-analysis of the deposited data

How the results depend on the processing

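Over 19 alternatives, DMXL2, WDR7 and TMEM199 stayed raised in all, at log2 fold changes of 0.44 to 0.76, 0.38 to 0.96 and 0.48 to 0.70. OXR1 kept its direction (0.20 to 0.80) but lost its call in DESeq2 (0.24), without control replicate 2 (0.22), at an adjusted p of 0.01 and in a test against a fold of 1.2 (both 0.23); the number of raised members was then 3, and 6 with the span trend removed, with or without the replicate block. No member was lowered in any.

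Of the members not past the test, CCDC115 alone kept its sign under all 19 alternatives. VMA21 was at 0.12 with library size alone, ROGDI at -0.033 with the span trend removed (-0.030 with the replicate block as well). With each library left out in turn DMXL1 ran from -0.0077 to 0.081, ROGDI from -0.048 to 0.091, VMA21 from -0.075 to 0.057 and NCOA7 from -0.042 to 0.13. The log2 ratio of WDR7 to DMXL2 ran from -0.11 to 0.079.

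Over all genes 8193 changed; against a fold of 1.2 it was 4636 (2386 raised, 2250 lowered), and with a library left out 6863 to 8087. With library size alone 5618 rose and 2733 fell. Same-numbered libraries did not deviate together (correlations -0.088, -0.029 and -0.10), and no control library matched its own number best. With 3 libraries a group this cannot show whether a number marks a shared day or culture, which the labels do not state. The replicate block changed no member's call, and 7195 genes passed.

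By longest transcript, levels were 10.05 TPM for DMXL1, 9.75 for DMXL2, 7.35 for WDR7, 18.3 for ROGDI and 35.2 for TMEM199. CCDC115 was at 23.4, VMA21 at 73.0, NCOA7 at 11.6 and OXR1 at 17.6 TPM. With 3 libraries a group the exact permutation tests of ratios cannot go below p = 0.1. Adding the reads of overlapping genes was chosen after seeing the data.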

Other observations

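Several V-ATPase subunit forms were too low to be tested in these cells. ATP6V1B1, the form of the B subunit known from kidney intercalated cells and the inner ear, held 4.22 to 12.2 reads a library. ATP6V1C2 held 0 to 11 reads, ATP6V1G2, a neuronal form, 4 to 17, and ATP6V1G3 0 to 5. ATP6V0A4, the kidney form of the a subunit, was tested at 1.23 ± 0.164 CPM in the controls and 1.51 ± 0.316 CPM in the libraries labelled ATP6AP1 siRNA (SD, n = 3 each) and did not pass (edgeR adjusted p = 0.400), while the other 3 genes for that subunit, ATP6V0A1, ATP6V0A2 and TCIRG1, rose by 0.53, 0.49 and 0.38 on the log2 scale. All of these but ATP6V0A1 were picked out after their values were seen.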
